A study of Mus musculus with 9 samples.

Results

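The genes described here are 9 of the complement system: the C1q chains C1qa, C1qb and C1qc, the components C3, C4b and Cfb, the fragment receptors C3ar1 and C5ar1, and the inhibitor Serping1. They were chosen by name and make up 9 of the 51912 genes counted in each of 9 RNA libraries. Each library came from hippocampal cells of male C57BL/6 mice that carry Cre under the Camk2a promoter. All mice had received rAAV5-DIO-mCherry, an adeno-associated virus of serotype 5 that gives red fluorescence only in Cre-positive cells, at 2.88e+08, 2.88e+09 or 2.88e+10 vector genomes. Fluorescent, DAPI-negative cells were sorted 3 weeks later and are called pyramidal neurons by the submitters. The series describes 3 groups of 3, but the labels of the libraries, titled S1001 to S1009, state no dose and no age. The column headers carry H for S1001 to S1003, M for S1004 to S1006 and L for S1007 to S1009, letters that the labels do not explain. No dose was therefore assigned, no test between doses was made, and each library is given with its own value; where libraries are named together, they share a header letter and nothing more is assumed of them.

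Complement is a cascade of plasma and tissue proteins. C1q recognises bound antibody and other surfaces and starts the classical pathway, in which C4 and C2 assemble the enzyme that cleaves C3, while factor B does the same in the alternative pathway. The released fragments C3a and C5a signal through their receptors on myeloid cells, and the inhibitor encoded by Serping1 blocks the C1 proteases. In the mouse brain C1q is made mostly by microglia, and C1q and C3 are known for marking synapses for removal by these cells during development.

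Library totals ranged from 12136830 to 19151596 counts, and levels are given as CPM, the count scaled to library size with TMM factors. With 3 counts taken as the limit that 0 counts allow, for counting error only, the limit is 0.158 CPM in the deepest library and 0.246 CPM in the shallowest; the exact 95% intervals drawn and quoted elsewhere are two-sided and reach somewhat higher. Whole profiles of S1001 to S1003 lay closer to each other than those of any other libraries. The chi-square per degree of freedom was 2.67 to 5.14 for pairs among them, 24.3 to 38.9 for pairs within S1004 to S1006 or within S1007 to S1009, and 83.3 to 184 for all other pairs, so no pair was within sampling noise. Markers of excitatory neurons were present throughout, with a summed level of 3296 to 8025 CPM over 7 genes. Markers of microglia and of border macrophages (the macrophages of meninges and vessels) were also present. Those of inhibitory neurons were uneven, with Gad1 at 36.4 to 574 CPM, Gad2 at 20.7 to 221 CPM and Sst at 81.0 to 517 CPM. Vip was at 0.305 to 164 CPM, Pvalb at 0 to 20.2 CPM and Slc32a1 at only 0.538 to 2.95 CPM. The libraries therefore did not show pyramidal neurons alone, although none of 6 endothelial markers reached a mean of 1 CPM.

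All 9 genes lie on the minus strand in GENCODE M21 (build mm10), with 3 of them on chromosome 4 and 3 on chromosome 17. C1qb (chromosome 4, 136880129 to 136886187), C1qc (136889804 to 136893065) and C1qa (136895917 to 136898803) sit side by side within 18.7 kb. C4b (34728380 to 34743882), Cfb (34856374 to 34862518) and C3 (57203970 to 57228136) are on chromosome 17. C3ar1 is on chromosome 6 (122847138 to 122856161), C5ar1 on chromosome 7 (16246743 to 16259540) and Serping1 on chromosome 2 (84765387 to 84775444). Cfb lies almost wholly inside the annotated gene Gm20547, which had 0 counts in every library, and the sources used here do not give how reads of overlapping genes were counted, so the level of Cfb is uncertain. C4b has the near-identical neighbour C4a, and how the counts divide between this pair is uncertain as well.

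RefSeq promoter windows of 300 bases (250 before the start to 50 after it, build GRCm38.p6) were held for 5 of the 9 genes. Of these, 4 are shown: C1qb and C1qc, neighbours whose levels moved together, and C3 and C5ar1, which had opposite orders between S1001 to S1003 and S1004 to S1006. They are given 5′ to 3′ on the gene's own strand, from chr4:136886151-136886450, chr4:136892865-136893164, chr17:57228087-57228386 and chr7:16259289-16259588, all on the minus strand. Capitals mark matches to the motifs searched.
C1qb: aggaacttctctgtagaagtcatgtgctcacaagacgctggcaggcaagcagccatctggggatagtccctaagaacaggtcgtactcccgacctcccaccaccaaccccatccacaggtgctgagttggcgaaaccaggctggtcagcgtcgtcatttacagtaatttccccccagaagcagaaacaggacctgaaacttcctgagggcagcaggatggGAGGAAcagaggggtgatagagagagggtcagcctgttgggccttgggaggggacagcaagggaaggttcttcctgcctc
C1qc: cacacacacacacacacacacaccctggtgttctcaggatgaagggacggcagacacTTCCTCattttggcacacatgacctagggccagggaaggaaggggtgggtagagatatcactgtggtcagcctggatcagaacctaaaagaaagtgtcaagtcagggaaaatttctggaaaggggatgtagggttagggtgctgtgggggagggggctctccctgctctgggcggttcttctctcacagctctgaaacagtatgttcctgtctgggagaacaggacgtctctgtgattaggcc
C3: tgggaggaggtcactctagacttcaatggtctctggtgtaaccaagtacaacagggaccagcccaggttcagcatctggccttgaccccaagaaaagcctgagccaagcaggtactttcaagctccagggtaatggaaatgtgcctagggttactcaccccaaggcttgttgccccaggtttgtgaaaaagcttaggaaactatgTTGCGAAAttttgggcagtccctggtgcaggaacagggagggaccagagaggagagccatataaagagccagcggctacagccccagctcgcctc
C5ar1: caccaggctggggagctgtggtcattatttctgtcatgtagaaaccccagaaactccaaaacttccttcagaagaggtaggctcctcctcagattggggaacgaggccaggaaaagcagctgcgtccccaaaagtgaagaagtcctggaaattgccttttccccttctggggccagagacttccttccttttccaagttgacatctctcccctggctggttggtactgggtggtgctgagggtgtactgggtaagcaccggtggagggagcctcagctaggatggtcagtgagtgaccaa
The motifs were searched on both strands over all 32851 windows. GAGGAA, the core bound by the myeloid factor PU.1, ended 25 bases before the start of C1qb and, on the opposite strand, 188 bases before that of C1qc, and is held by 28.3% of all windows. TTGCNNAA, a form of the C/EBP motif, ended 38 bases before the start of C3 and is held by 10.8% of all windows. The AP-1 motif TGANTCA occurs in the window of C3ar1, which is not shown, 16 bases before the start, and in 7.81% of all windows. An NF-kappaB motif and the interferon-stimulated response element have no match in the 5 windows and occur in 0.411% and 3.44% of all windows. The window of C5ar1 held none of the 5 motifs, which says only that these letters are not in it. No motif overlapped another, and a match is not evidence that a factor binds there. Among the windows shown, the GENCODE models of C1qc and C5ar1 begin further upstream, inside their windows. By these models most of each of the 2 windows lies after the start.

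Together the 9 genes took up a far larger share of some libraries than of others. They held 1.04%, 0.901% and 0.965% of all counts in S1001 to S1003, 0.470%, 0.370% and 0.384% in S1004 to S1006, and 0.00241%, 0.00636% and 0.00113% in S1007 to S1009. The ranges of these sets of libraries did not overlap. Most of this was the C1q chains, which made up 10088 of the 10363 CPM of the 9 genes in S1001 and 9.06 of 11.8 CPM in S1009. Spread was measured as the second highest of the 9 values of log2(CPM + 1) minus the second lowest, so that 1 library alone cannot make it. Of the 9 genes, 8 had a mean of at least 1 CPM, 8 had in addition a spread of at least 2-fold, and 7 a spread of at least 16-fold. Over all 14787 genes past that minimum, 26.4% had a spread of at least 2-fold and 3.25% of at least 16-fold. The median spread was 6.53 on the log2 scale for the 8 genes and 0.66 for all genes. C3 reached the minimum mean only through its levels in S1001 to S1003. Serping1, with a mean of 1.09 CPM, only just reached it and was below 1 CPM in S1005 and S1007 to S1009. Its place in the count therefore also rests on the libraries where it was higher. These counts describe genes chosen with earlier results of these libraries known and are no test.

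**Figure D1:**
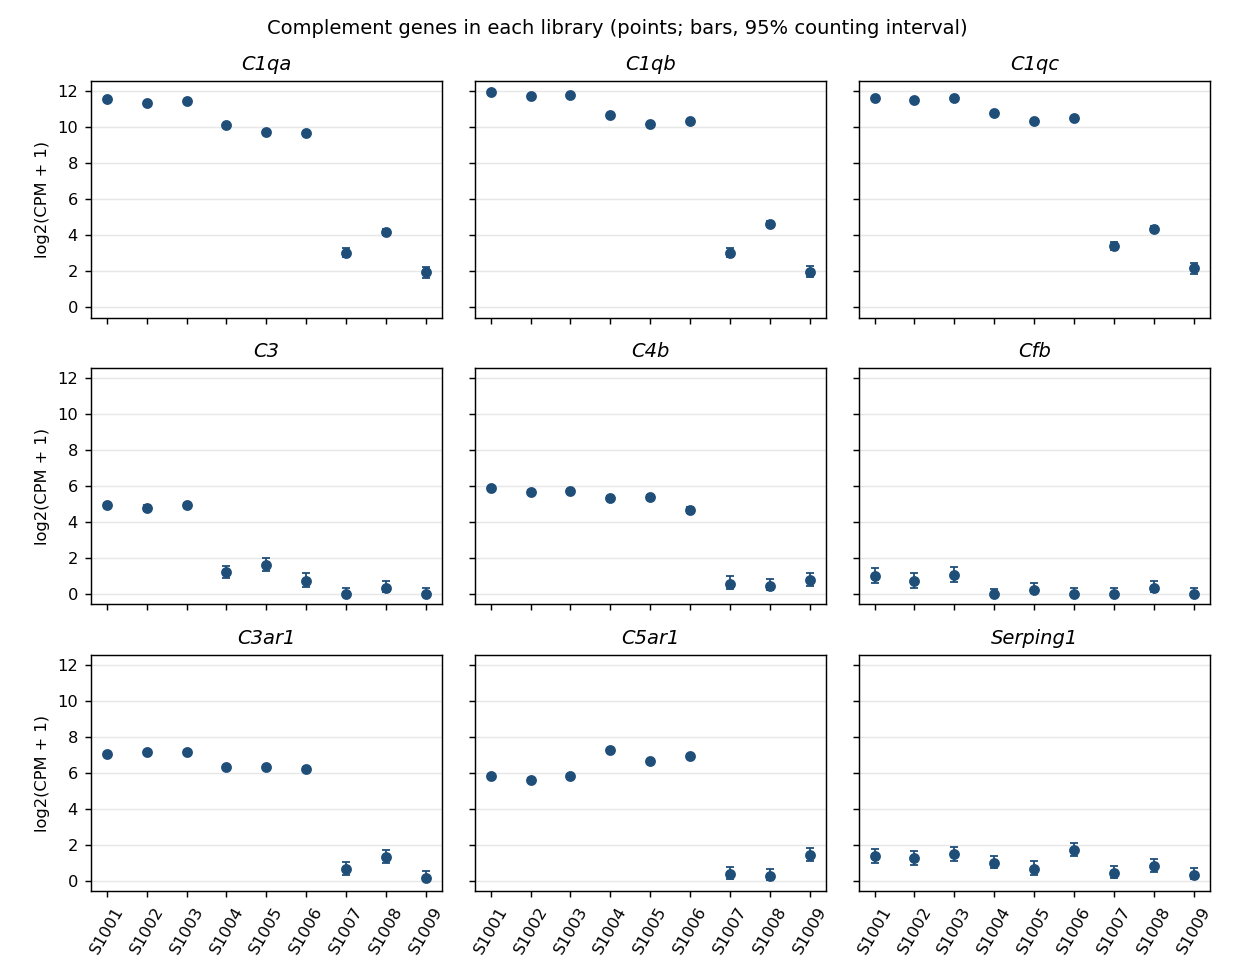
Level of each of the 9 complement genes, as log2(CPM + 1), in the 9 libraries; bars are 95% counting intervals. The C1q chains, C3, C4b and C3ar1 are highest in S1001 to S1003, C5ar1 is highest in S1004 to S1006, and in S1007 to S1009 the C1q chains, at 2.77 to 23.6 CPM, lie above the other genes, none of which exceeds 1.73 CPM.

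The C1q chains, which assemble together into the recognition molecule of the classical pathway, had the largest spreads of the 9 genes. C1qa (ENSMUSG00000036887) measured 2991, 2549 and 2755 CPM in S1001 to S1003, 1117, 855 and 805 CPM in S1004 to S1006, and 7.06, 17.1 and 2.77 CPM in S1007 to S1009. C1qc (ENSMUSG00000036896) measured 3172, 2851 and 3061 CPM, then 1729, 1303 and 1438 CPM, then 9.28, 19.2 and 3.39 CPM in the same order of libraries. Neither gene's ranges overlapped between these sets of libraries, and within S1007 to S1009 the level in S1008 stood above both others. C1qb (ENSMUSG00000036905) followed the same steps, with 1615, 1166 and 1288 CPM in S1004 to S1006. The spreads were 8.42 for C1qa, 8.79 for C1qb and 8.22 for C1qc on the log2 scale. In S1009 the lowest of these levels, 2.77 CPM for C1qa, rests on 45 counts and has a 95% counting interval of 2.02 to 3.71 CPM.

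Within a library the 3 chains did not keep 1 ratio to each other. Per base of gene length, using the lengths implied by the deposited FPKM (counts per length of gene and size of library), C1qb stood at 1.25, 1.25 and 1.23 times C1qa in S1001 to S1003 and at 1.38, 1.30 and 1.53 times in S1004 to S1006. C1qc stood at 0.571, 0.602 and 0.598 times C1qa in S1001 to S1003 and at 0.833, 0.820 and 0.962 times in S1004 to S1006. The ranges of C1qc to C1qa did not overlap between these libraries, and the widest 95% counting interval among the 6 values, 0.940 to 0.985 in S1006, is narrow beside that gap. C1qc relative to C1qa in S1007 to S1009 was 0.708, 0.604 and 0.658, with intervals of 0.545 to 0.921, 0.512 to 0.712 and 0.436 to 0.999. At such small counts S1007 and S1009 could not be told from S1003 or from S1004. C1qa was thus the chain that differed most between S1001 to S1003 and S1004 to S1006, and C1qc the least.

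**Figure D2:**
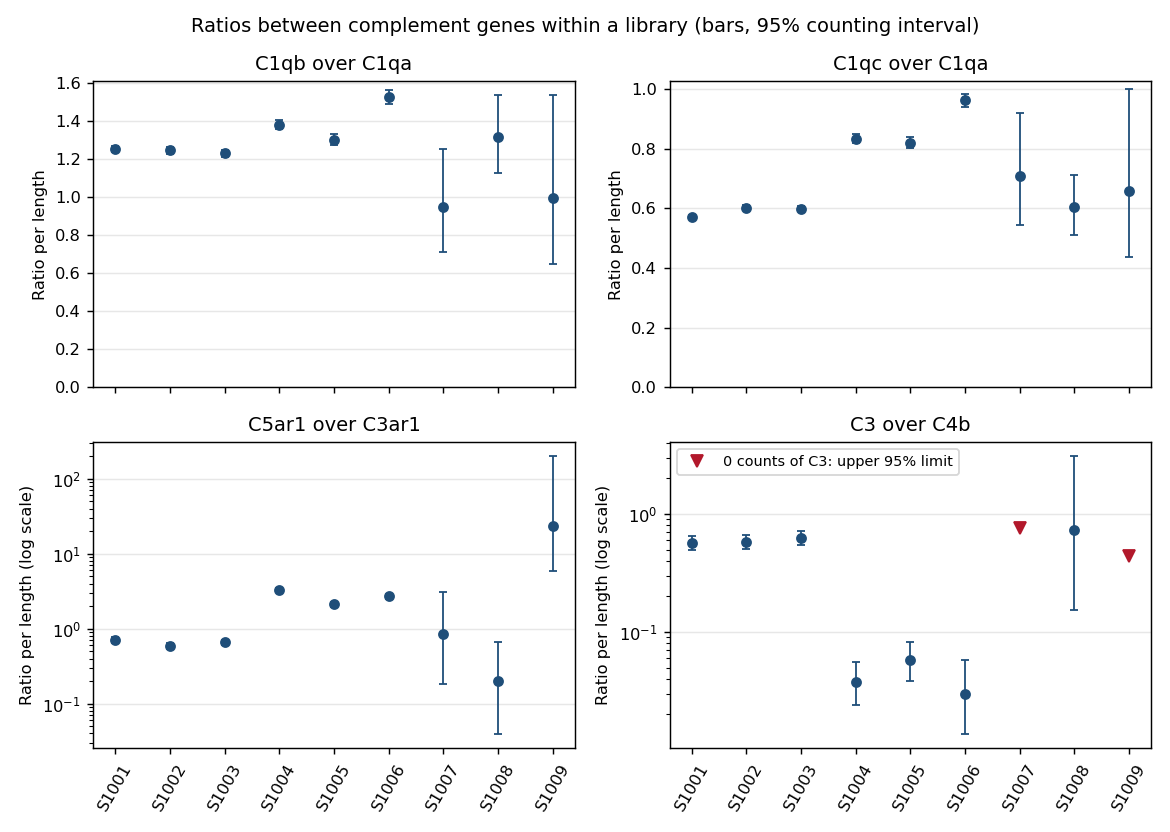
Per-length ratios between pairs of complement genes within each library, with 95% counting intervals; the C1q panels have a linear axis from 0 and the other panels a log axis, and triangles give upper limits where C3 had 0 counts. C1qc over C1qa is 0.571 to 0.602 in S1001 to S1003 and 0.820 to 0.962 in S1004 to S1006, while C5ar1 over C3ar1 is 0.580 to 0.711 and 2.11 to 3.28 in the same libraries.

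C3, the component on which all pathways converge, separated S1001 to S1003 from every other library. Its level (ENSMUSG00000024164) was 29.0, 26.0 and 29.0 CPM in S1001 to S1003, 1.32, 2.07 and 0.654 CPM in S1004 to S1006, and 0, 0.244 and 0 CPM in S1007 to S1009, where it had 0, 4 and 0 counts. The lowest of S1001 to S1003 was far above the highest of the others. Several marker lists stepped in the same libraries, among them that of microglia, given below. Oligodendrocyte markers had a sum over 8 genes of 597 to 620.5 CPM in S1001 to S1003, 93.3 to 155 CPM in S1004 to S1006 and 31.7 to 60.5 CPM in S1007 to S1009. In the same order, oligodendrocyte precursor markers summed to 87.3 to 92.2, 10.8 to 17.7 and 0.431 to 6.09 CPM. Monocyte markers summed to 53.2 to 58.8, 0.316 to 0.581 and 0 to 0.0673 CPM. The part of any of these cells in the level of C3 was not tested. C4b, whose protein joins C2 in the classical C3-cleaving enzyme, did not follow C3. C4b (ENSMUSG00000073418) measured 56.6, 49.8 and 51.2 CPM in S1001 to S1003, 38.6, 39.9 and 24.2 CPM in S1004 to S1006, and 0.471, 0.365 and 0.678 CPM in S1007 to S1009. Per length, C3 stood at 0.567, 0.579 and 0.627 times C4b in S1001 to S1003 but at 0.0377, 0.0574 and 0.0299 times in S1004 to S1006. Their spreads were 4.91 for C3 and 5.15 for C4b on the log2 scale.

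Cfb, factor B of the alternative pathway (ENSMUSG00000090231), was near the detection limit. It had 0.983, 0.614 and 1.07 CPM in S1001 to S1003, 0, 0.138 and 0 CPM in S1004 to S1006, and 0, 0.244 and 0 CPM in S1007 to S1009. Its mean of 0.339 CPM was below the minimum and its spread of 0.99 just under 2-fold, so it was not counted. Serping1, the C1 inhibitor (ENSMUSG00000023224), was also low and did not separate S1004 to S1006 from the other libraries. It measured 1.56, 1.38 and 1.75 CPM in S1001 to S1003, 1.00, 0.552 and 2.25 CPM in S1004 to S1006, and 0.336, 0.731 and 0.247 CPM in S1007 to S1009. The highest level was in S1006, and S1004 to S1006 overlapped both other sets, while S1001 to S1003 lay above S1007 to S1009. Its spread of 1.04 on the log2 scale was just past 2-fold, and was 0.83 without S1007 or S1009 and 0.94 without S1003 or S1006.

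The receptors for the C3a and C5a fragments had different orders over the libraries. C3ar1 (ENSMUSG00000040552) measured 131, 138 and 143 CPM in S1001 to S1003, 78.1, 77.4 and 72.9 CPM in S1004 to S1006, and 0.538, 1.52 and 0.123 CPM in S1007 to S1009. C5ar1 (ENSMUSG00000049130) measured 55.7, 47.9 and 56.2 CPM in S1001 to S1003, 153, 97.6 and 118 CPM in S1004 to S1006, and 0.269, 0.183 and 1.73 CPM in S1007 to S1009. C5ar1 was the only one of the 9 genes whose level was higher in each of S1004 to S1006 than in each of S1001 to S1003. Other complement genes given below, such as Fcna, Colec12, Cfp and C5ar2, had this order too, and its share among all genes was not computed. Per length C5ar1 was below C3ar1 in S1001 to S1003, at 0.711, 0.580 and 0.658 times, and above it in S1004 to S1006, at 3.28, 2.11 and 2.72 times. In S1009 C5ar1 had 28 counts and C3ar1 2, a per-length ratio of 23.5 with a 95% counting interval of 5.91 to 203. In S1008 C5ar1 had 3 counts and C3ar1 25, a ratio of 0.201 with an interval of 0.0389 to 0.659, the opposite order to S1009. In S1007, with 4 and 8 counts, the interval of 0.185 to 3.13 set no order.

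Levels of different genes can be compared per length through the deposited FPKM. In S1001 the order was C1qb at 3627 FPKM, C1qa at 2892, C1qc at 1651, C3ar1 at 30.7, C5ar1 at 21.8, C4b at 10.0, C3 at 5.67, Serping1 at 0.67 and Cfb at 0.35 FPKM. In S1004 the C1q chains kept their order at 1473, 1066 and 888 FPKM, but C5ar1 at 59.0 FPKM stood above C3ar1 at 18.0 and C4b at 6.72, and C3 was at 0.25 FPKM. In S1008 the chains measured 21.8 (C1qb), 16.6 (C1qa) and 10.0 FPKM (C1qc) and no other of the 9 genes passed 0.36 FPKM.

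Markers of microglia and of border macrophages differed between the same libraries. The summed level of 12 microglia markers was 5262, 5133 and 5188 CPM in S1001 to S1003, 1563, 1354 and 1192 CPM in S1004 to S1006, and 52.5, 72.1 and 16.5 CPM in S1007 to S1009. The summed level of 7 border macrophage markers was 399.8, 399 and 406 CPM, then 2245, 1588 and 1895 CPM in the same order, and 2.89 CPM in S1007 and 2.22 CPM in S1009, with S1008 between these and all others. No marker of these lists was at 0 in any library. Single microglia markers stood apart, since Tmem119 was at 226, 224 and 238 CPM in S1001 to S1003 but at 1.84, 4.00 and 2.47 CPM in S1004 to S1006, close to the 3.50, 2.44 and 0.247 CPM of S1007 to S1009. Csf1r, a receptor that microglia share with other macrophages, was at 473, 461 and 466 CPM and then at 332, 351 and 237 CPM in S1001 to S1003 and S1004 to S1006. The border macrophage receptor Mrc1 was at 89.0, 100.0 and 102 CPM and then at 423, 346 and 400.1 CPM. In bulk samples such as these, fewer cells of a type and less RNA per cell cannot be told apart, and the part of these cell types in the complement levels was not tested.

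**Figure D3:**
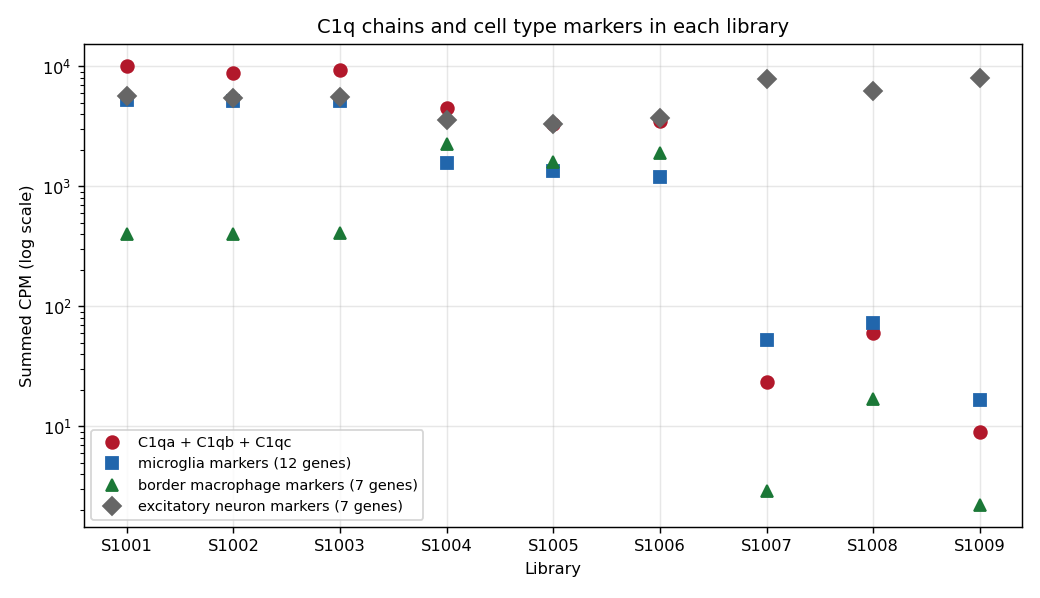
Summed CPM of the C1q chains and of the marker lists in each library, on a log axis. The C1q sum is 8727 to 10088 CPM in S1001 to S1003, 3325 to 4461 CPM in S1004 to S1006 and 9.06 to 59.9 CPM in S1007 to S1009, the microglia markers step down in the same libraries, and the border macrophage markers are highest in S1004 to S1006.

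Relative to these markers, the C1q sum was not constant. It came to 192%, 170.0% and 180% of the microglia marker sum in S1001 to S1003, 285%, 246% and 296% in S1004 to S1006, and 44.4%, 83.0% and 54.9% in S1007 to S1009, so that it was highest relative to microglia markers in libraries where its own level was intermediate. Against the border macrophage sum it was 2187% to 2523% in S1001 to S1003, 186% to 209% in S1004 to S1006 and 352% to 807% in S1007 to S1009. C3 was 0.507% to 0.559% of the microglia sum in S1001 to S1003 and 0.0549% to 0.153% in S1004 to S1006, while C5ar1 was 0.932% to 1.08% and 7.21% to 9.94% in the same libraries. C4b was 0.970% to 1.08% of the microglia sum in S1001 to S1003 and 2.03% to 2.94% in S1004 to S1006, and C3ar1 was 2.50% to 2.76% and 5.00% to 6.11%. Of these 5 quantities, C3 was the 1 that was lower relative to microglia markers in S1004 to S1006 than in S1001 to S1003. Relative to border macrophage markers, all 5 were lower in S1004 to S1006. C5ar1 was 11.99% to 13.94% of that sum in S1001 to S1003 and 6.144% to 6.805% in S1004 to S1006. C3ar1 was 32.86% to 35.22% and 3.479% to 4.876% in the same libraries. The place of C3 among the 5 therefore depends on the marker list used. Monocyte, neutrophil and plasma cell lists differed as well. The monocyte marker Ly6c2 was at 49.0 to 52.8 CPM in S1001 to S1003 and at 0 in the 6 other libraries. The rest of the monocyte list was low in S1001 to S1003, with Plac8 at 2.52 to 3.77 CPM and Ccr2 at 0.915 to 2.05 CPM. Chil3 was at 0.246 CPM or less in every library. Jchain of plasma cells was at 1046 to 1131 CPM in S1001 to S1003 and at 0.202 to 1.17 CPM in the 6 other libraries. The plasma cell list did not move as 1, since Tnfrsf17 was at 2.29 to 3.11 CPM in S1001 to S1003, 3.13 to 6.21 CPM in S1004 to S1006 and 0 in S1007 to S1009, and Xbp1, which many cells express, was at 191 to 388 CPM with all sets of libraries overlapping. Of the neutrophil markers Csf3r alone exceeded 1 CPM, at 68.0 to 76.4 CPM in S1001 to S1003 and 10.4 to 16.6 CPM in S1004 to S1006, while S100a8 and S100a9 had at most 1 count in any library. The part of these cells was not tested either.

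The rest of the complement system was examined through 46 other genes, of which 22 had a mean of at least 1 CPM and 14 of those a spread of at least 2-fold, against the 26.4% of all genes given above. Their median spread was 2.00 on the log2 scale. Of the genes counted, Itgax and C1ra reached the minimum mean only through S1001 to S1003, and C5ar2 and Vtn only through S1004 to S1006. As with the 9 members, the count is a description and no test. Among classical and lectin genes 4 of 15 reached 1 CPM and 4 passed 2-fold. C2, the partner of C4, was at 8.44, 8.68 and 7.85 CPM in S1001 to S1003, 9.96 to 17.7 CPM in S1004 to S1006 and 0.269, 0.914 and 0.678 CPM in S1007 to S1009. C2 overlaps the annotated gene Gm20547, as Cfb does, so its level is uncertain in the same way. The lectins Fcna (ficolin A) and Colec12 shared the order of C5ar1. Fcna was at 10.2, 8.53 and 10.3 CPM in S1001 to S1003, 66.0, 52.4 and 63.4 CPM in S1004 to S1006 and 0, 0.0609 and 0 CPM in S1007 to S1009. C1ra, a C1 protease, was low, at 3.76 to 5.25 CPM in S1001 to S1003 and at most 2.28 CPM elsewhere, and its partner C1s1 reached 0.291 CPM at most. C1ra and C1s1 have the copies C1rb and C1s2, and the division of their counts is uncertain.

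Cfp encodes properdin, which stabilises the alternative pathway enzyme, and shared the order of C5ar1. It measured 18.7, 14.2 and 15.0 CPM in S1001 to S1003, 116, 138 and 98.9 CPM in S1004 to S1006 and 3.30, 4.57 and 0.555 CPM in S1007 to S1009, while Cfd, the protease that activates factor B, was at 0 in every library. Of 7 terminal pathway genes only C8g reached a mean of 1 CPM, at 1.28 to 5.36 CPM with a spread below 2-fold, and Hc, which encodes C5, was at 0.328 CPM or less.

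Of 10 regulators with a mean of at least 1 CPM, 4 passed 2-fold (Cd55, Cd59a, Cd46 and Vtn) and 6 did not, beside 26.4% of all genes that passed. The 6 were Clu, the chaperone clusterin, at 208 to 418 CPM, Cr1l at 21.7 to 46.9 CPM, Csmd1 at 20.6 to 38.8 CPM, Csmd2 at 5.85 to 11.5 CPM, Csmd3 at 26.6 to 61.3 CPM and Susd4 at 67.5 to 117 CPM. Cd55, which dissociates the C3-cleaving enzymes, was at 33.2 to 42.9 CPM in S1004 to S1006 and at 11.2 to 22.6 CPM in all other libraries. Cd59a, which blocks the terminal complex, was at 1.37 to 2.29 CPM in S1001 to S1003, 3.10 to 9.01 CPM in S1004 to S1006 and 2.10 to 8.14 CPM in S1007 to S1009, the last overlapping both others. Cd46 was at 3.93 to 5.45 CPM, 1.89 to 6.21 CPM and 0.493 to 3.05 CPM in the same order, with S1004 to S1006 overlapping both others. Vtn, the terminal pathway inhibitor vitronectin, was at 6.48 to 11.0 CPM in S1004 to S1006 and at most 1.23 CPM elsewhere.

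Of 8 other receptor genes 6 averaged 1 CPM or more and 5 of these passed 2-fold, beside 26.4% of all genes. Itgam, Itgax and Itgb2, subunits of complement receptors 3 and 4, were highest in S1001 to S1003. Itgax was at 55.5, 52.5 and 52.8 CPM there, at 0.0526, 0.896 and 0.0727 CPM in S1004 to S1006 and at 0, 0.487 and 0 CPM in S1007 to S1009. Itgam was at 45.9 to 47.3 CPM and at 3.84 to 7.72 CPM in S1001 to S1003 and S1004 to S1006, and Itgb2 at 108 to 124 CPM and 16.8 to 19.7 CPM. C5ar2, the second C5a receptor and neighbour of C5ar1, was at 0.328, 1.23 and 1.91 CPM in S1001 to S1003, 6.37, 7.17 and 9.23 CPM in S1004 to S1006 and 0 in S1007 to S1009. Cd93, a myeloid and endothelial surface protein once proposed as a C1q receptor, was at 5.53 to 6.23 CPM and 8.07 to 12.2 CPM in S1001 to S1003 and S1004 to S1006. C1qbp, a mitochondrial protein named for binding C1q, was nearly even, at 112 to 137 CPM in all 9 libraries.

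**Figure D4:**
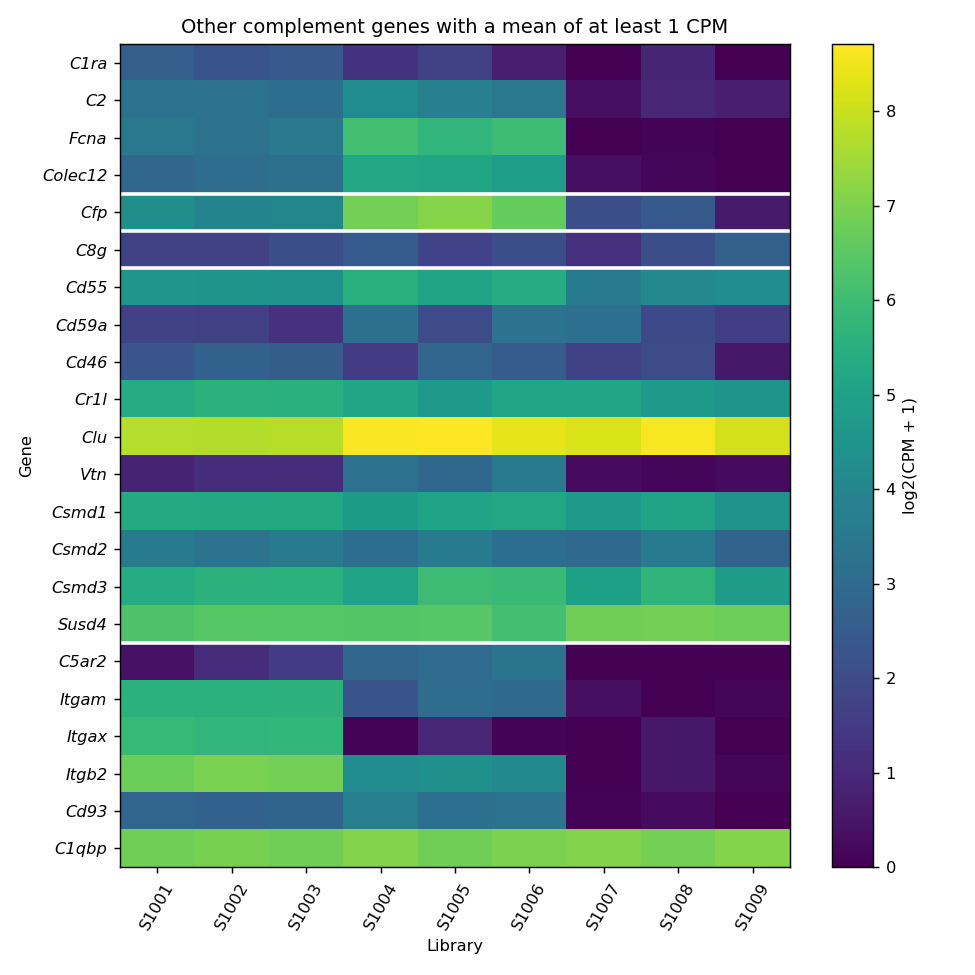
Colour map of log2(CPM + 1) for the 22 other complement genes that averaged 1 CPM or more, in the 9 libraries; white lines separate classical and lectin, alternative, terminal, regulator and receptor genes. Fcna, Colec12, Cfp, Vtn and C5ar2 are brightest in S1004 to S1006, and Itgam, Itgax and Itgb2 in S1001 to S1003. Clu, Csmd1 and Susd4 differ less between libraries, and C1qbp is nearly even. Clu is at 208 to 216 CPM in S1001 to S1003 and at 284 to 418 CPM elsewhere. Susd4 is at 108 to 117 CPM in S1007 to S1009 and at 67.5 to 85.7 CPM elsewhere.

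The genes nearest to each of the 9 in pattern were found among 9632 genes that averaged 10 CPM or more, the 9 complement genes themselves left out, by the mean absolute difference of log2(CPM + 1), centred on each gene's median, over the 9 libraries. Nearest to C1qa were Tyrobp (0.20), Laptm5 (0.30) and Fcer1g (0.42), nearest to C1qb were Tyrobp (0.31), Fcer1g (0.44) and Laptm5 (0.50), and nearest to C1qc were Fcer1g (0.28), Cd14 (0.42) and Tyrobp (0.44). C1qb and C1qc differed by 0.22, less than either differed from any of these genes. C1qb and C1qa differed by 0.25, more than C1qa differed from Tyrobp. C3 was nearest to Cldn11 (0.19), Isg15 (0.23) and Bcl2a1d (0.27), and far from C4b and the other members, of which Cfb at 1.41 was the nearest. C4b was nearest to Themis2 (0.16), Fermt3 (0.21) and Fyb (0.22), and C3ar1 to Litaf (0.20), Tcn2 (0.20) and Unc93b1 (0.21). C5ar1 was nearest to Ms4a6c (0.31), Ltc4s (0.31) and Ms4a6b (0.32). Cfb was nearest to Dot1l, Syngr1 and BC037034 and Serping1 to Swt1, Ugdh and Mdm4, at 0.08 to 0.15, which at their low levels mainly shows that both varied little on this scale.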

How the data were processed

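RNA of sorted hippocampal cells was counted in 9 libraries. The deposited tables hold, per the file headers, the count and the FPKM of 51912 Ensembl genes. HTSeq 0.6.1, HISAT2 2.0.1, Trimmomatic 0.30 and bcl2fastq 2.17.1.14 are listed in the submitters' processing notes with build mm10, without roles or parameters, and the sources used here give no strand setting. Symbols and coordinates came from GENCODE M21, which held 51633 (99.46%) of the identifiers, and promoter sequences from RefSeq (GRCm38.p6).

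The labels put 0 of 9 libraries in a group, so nothing was tested between doses. CPM were computed with the TMM factors of edgeR 4.0.16 in R 4.3.3, with a pseudocount of 1 CPM on the log2 scale. Spread is the second highest minus the second lowest value, called at 2-fold for genes averaging 1 CPM or more. Deposited FPKM gave the gene lengths for ratios between genes. Counting intervals are exact 95% Poisson or binomial (Clopper-Pearson) intervals and cover counting error only. The calculation of spread was tested on simulated data. Alternatives were library totals, DESeq2 1.42.0 size factors, pseudocounts of 0.5 and 5 CPM, the full range, deposited FPKM and leaving out each library. The named genes are all 9 members, the other complement genes averaging 1 CPM or more and the 3 nearest genes by pattern; single marker genes, and complement genes below 1 CPM, were named after their values were seen. A further complement gene is not reported here and is left out of the list counts. Members and lists were chosen with earlier results of these data known. Python 3.11.15, numpy 2.4.6, pandas 2.3.3, scipy 1.17.1 and matplotlib 3.10.9 were used.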

Additional observations from a re-analysis of the deposited data

How the results depend on the processing

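The count of 8 complement genes past 2-fold was 7 or 8 under every scaling, pseudocount, range and FPKM alternative and when each library was left out. The exceptions were Serping1 and Cfb, the low members. The spread of Serping1 was 0.34 with a pseudocount of 5 CPM and 0.62 on FPKM, under 2-fold, and 0.83 to 1.04 with single libraries left out. The spread of Cfb passed 2-fold at 1.57 with a pseudocount of 0.5 CPM and at 1.05 over the full range. The spreads of the other 7 genes stayed past 2-fold in all alternatives run, the lowest being 2.73 for C3 on FPKM. The share of all genes past 2-fold depended more on the settings, at 13.2% with a pseudocount of 5 CPM, 30.7% with 0.5 CPM, 52.6% over the full range, 8.58% with no minimum, 18.3% with a minimum of 10 CPM and 21.6% to 24.8% with single libraries left out. The highest over the lowest ratio of the C1q sum to the microglia markers was 6.67, and 4.76 with the median of the list in place of its sum; to border macrophage markers it was 13.5, and 15.5 with the median. No paired analysis was possible because the labels give no groups. Small counts limit C3, C4b, Cfb, Serping1 and both receptors in S1007 to S1009, where they rest on 0 to 28 counts.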

Other observations

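The summed C1q level fell into 3 separate ranges over the libraries, at 10088, 8727 and 9363 CPM in S1001 to S1003, 4461, 3325 and 3531 CPM in S1004 to S1006, and 23.3, 59.9 and 9.06 CPM in S1007 to S1009.

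In S1009, the library with the lowest C1q, C5ar1 was at 1.73 CPM (95% counting interval 1.15 to 2.49) and the myeloid marker Aif1 at 1.85 CPM, while C3ar1 was at 0.123 CPM and Csf1r at 0.863 CPM. In S1008, C5ar1 was at 0.183 CPM and C3ar1 at 1.52 CPM. Masp2, a protease of the lectin pathway, was highest in S1007, at 2.22 CPM from 33 counts. It was at 1.02, 0.853 and 0.924 CPM in S1006, S1008 and S1009, and at 0.158 to 0.461 CPM in S1001 to S1005. These genes were named after their values were seen.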
